A study of Monodelphis domestica with 6 samples.

Results

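The genes of the WNT pathway were examined in neonatal skin fibroblasts (neoSFs) of the opossum Monodelphis domestica and in the induced pluripotent stem cells (monoiPSCs) made from them. The members were chosen by gene symbol, without a criterion on their levels, and are 51 of the 35665 genes in the deposited tables. Earlier results of these data were known when they were chosen. They are 17 WNT ligands, 10 frizzled receptors, the co-receptor LRP6, 4 R-spondins, the 2 ubiquitin ligases ZNRF3 and RNF43, 9 secreted antagonists (DKK, SFRP and NOTUM genes), the 4 intracellular inhibitors AXIN1, AXIN2, NKD1 and NKD2, and the 4 nuclear effectors LEF1, TCF7, TCF7L1 and TCF7L2. The symbols LRP5, WIF1 and WNT10B fit the same choice but were absent from the deposited tables, also by gene number. They could not be analysed here.

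WNT ligands are secreted lipid-modified proteins that bind a frizzled receptor together with LRP5 or LRP6. Binding stalls the AXIN-based complex that otherwise destroys beta-catenin, and beta-catenin then switches on target genes with TCF and LEF proteins, among them its own inhibitors. In pluripotent cells the pathway is known for its part in self-renewal and in the onset of gastrulation, and in skin fibroblasts several of its secreted antagonists are part of the usual expression profile.

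There were 6 libraries from wild type cells of 2 inbred strains, FD2M1 and LSD1. The neoSFs were primary cultures from female pups, 1 library per strain, grown in serum and without a treatment. The monoiPSCs came from the same cultures, into which episomal plasmids with human KLF4, cMYC, LIN28, NANOG, OCT4 and SOX2 had been introduced. The paper also lists the plasmids pCE-mp53DD and pCXB-EBNA1 among those introduced. The monoiPSCs were kept without feeder cells on Matrigel with human LIF, bFGF and the ROCK inhibitor Y27632. The supplements listed for this medium name no WNT protein and no GSK3 inhibitor. Each strain gave 1 line, sequenced at passage 15 and passage 25. Line and strain thus cannot be told apart, and the 4 monoiPSC libraries are not 4 independent lines. The paper names 2 monoiPSC lines but also writes of 4 clones. The labels of the libraries give strain and passage only, so that whether both passages of a line are the same clone is not known. The p-values measure the spread between these libraries.

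The total estimated count was 14278794 and 16982978 in the neoSF libraries and 28684754 to 35564261 in the monoiPSC libraries. The neoSFs were read in-house as single ends and the monoiPSCs by a service as longer paired ends, so that the platform and the cell type cannot be told apart. Levels are given as normalized read counts (NRC), the deposited log2 values put back on a linear scale. NRC is not corrected for gene length, so that levels of different genes are not compared here. A count of 3, taken as the floor, equals an NRC of 4.75 to 5.85 in neoSFs and 1.55 to 1.88 in monoiPSCs, and covers counting error only. The labelled cell types carried their markers: all 12 fibroblast markers found were lower and all 11 pluripotency markers found were higher in monoiPSCs. Of the markers of other cell types, the summed NRC of the neural crest and melanocyte list (5 of 8 genes found, 4 over an NRC of 20 in each monoiPSC library) was 243 and 399 in neoSFs and 11862 to 29088 in monoiPSCs, that of the keratinocyte list (2 of 6 found, TP63 at or below the floor in all 4 monoiPSC libraries) was 53.7 and 151 in neoSFs and 0 to 6.7 in monoiPSCs, and that of the endothelial list (6 of 6 found) was 265 and 160.4 in neoSFs and 427 to 685 in monoiPSCs. Of the endothelial genes, CDH5 was at or below the floor in all 6 libraries, and TIE1 held 1 count in neoSFs and 3405 in monoiPSCs. The skeletal muscle list (5 of 6 found) summed to 17524 and 21803 in neoSFs and 1971 to 16772 in monoiPSCs. The neural progenitor list (6 of 6 found, 3 and 2 over an NRC of 20 in neoSFs) summed to 6206 and 24822 in neoSFs. It summed to 4416 to 10583 in monoiPSCs. The primitive streak and mesendoderm list (10 of 12 found) summed to 203 and 255 in neoSFs and 4411 to 7915 in monoiPSCs.

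Values for neoSFs are in the order FD2M1, LSD1, and values for monoiPSCs in the order FD2M1 passage 15, FD2M1 passage 25, LSD1 passage 15, LSD1 passage 25. Differential expression (DE) means an adjusted p of at most 0.05 in the quasi-likelihood test of edgeR, adjusted over the 13072 tested genes by the Benjamini-Hochberg method, and a fold change of at least 2. Log2 fold changes are of monoiPSCs over neoSFs and carry their standard error.

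**Figure D1:**
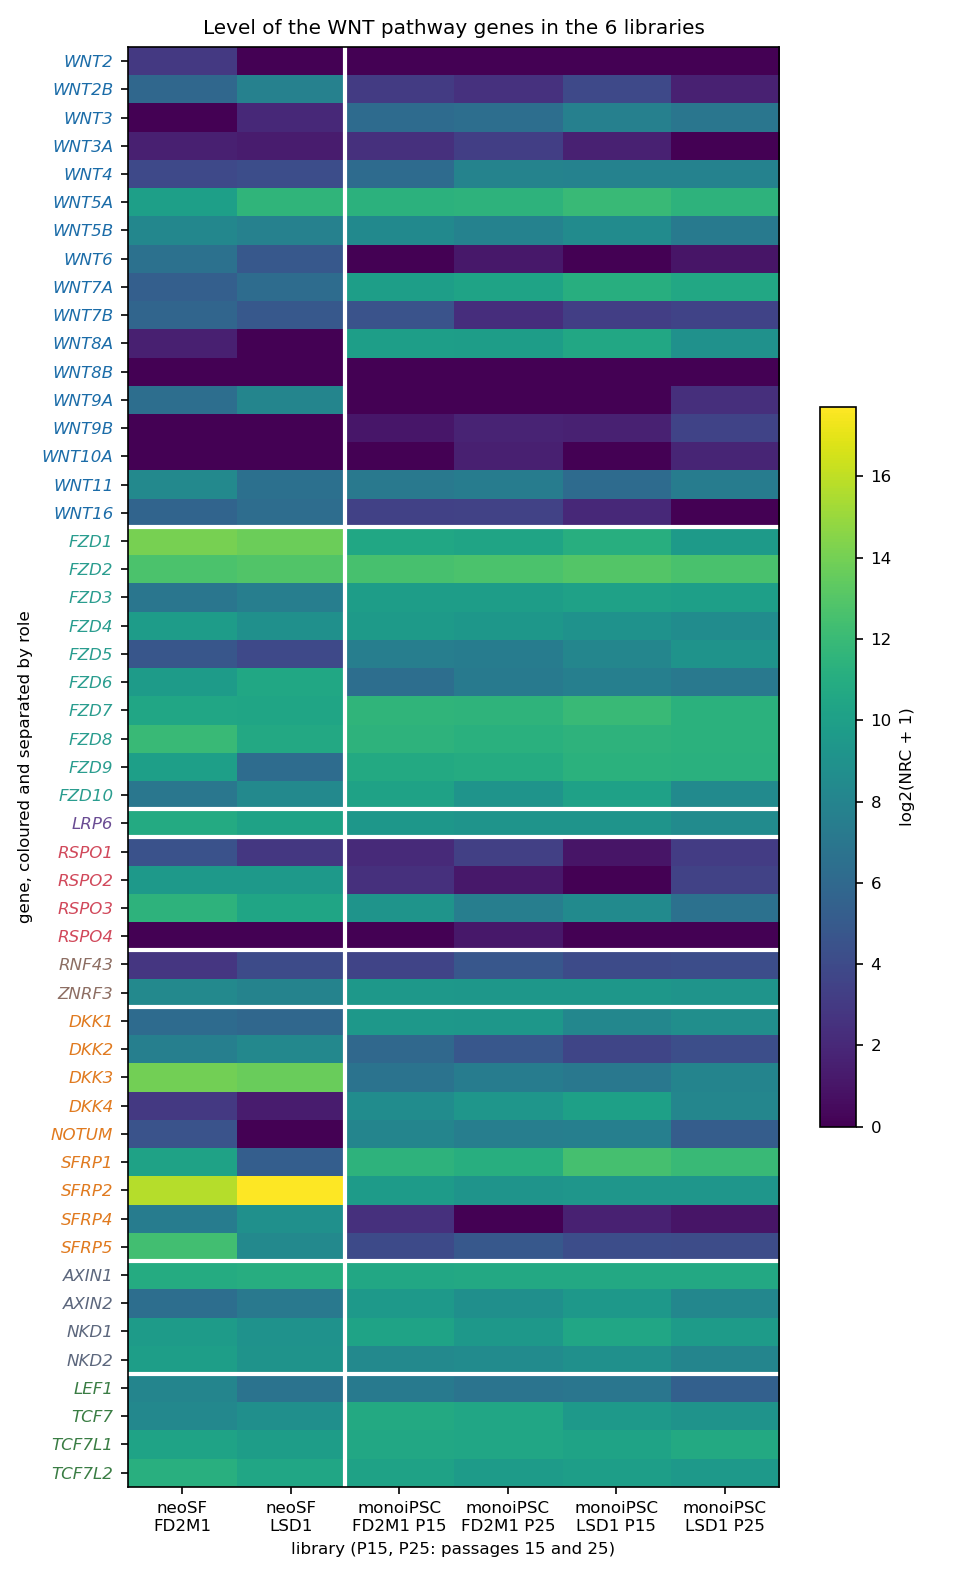
The colour shows the level of each of the 51 genes as log2(NRC + 1), with genes in rows by role and the 6 libraries in columns. SFRP2 reaches its highest level in the neoSFs, and WNT8A, WNT3 and DKK4 are dark in the neoSF columns and bright in the monoiPSC columns.

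Ligands, frizzleds and secreted antagonists each had members that rose and members that fell from neoSFs to monoiPSCs. Of the 51 genes, 43 reached the minimum NRC of 20 in both neoSF or all 4 monoiPSC libraries and were tested, 14 rose, 14 fell and 15 were not DE. Across all tested genes 45.9% were DE, 24.3% higher and 21.6% lower. Of these members 15 passed the minimum only through the group where they are high, so that their difference is in part set by the filter. Of the 28 members with the minimum in both groups 14 were DE (8 higher, 6 lower), beside 38.6% of all genes with the minimum in both groups. The median absolute log2 fold change was 2.69 over the tested members and 0.95 over all tested genes, a gap that the filter in part sets. Over the 28 members with the minimum in both groups it was 1.31, beside 0.79 over all such genes. The median signed value of the members was -0.004. The levels of 35 members did not overlap between the groups, beside 73.2% of all tested genes. In 17 of them all monoiPSCs lay above both neoSFs, beside 36.1% of all genes, and in 18 below, beside 37.1%. In bulk samples, fewer cells that express a gene and less of its RNA per cell cannot be told apart.

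**Figure D2:**
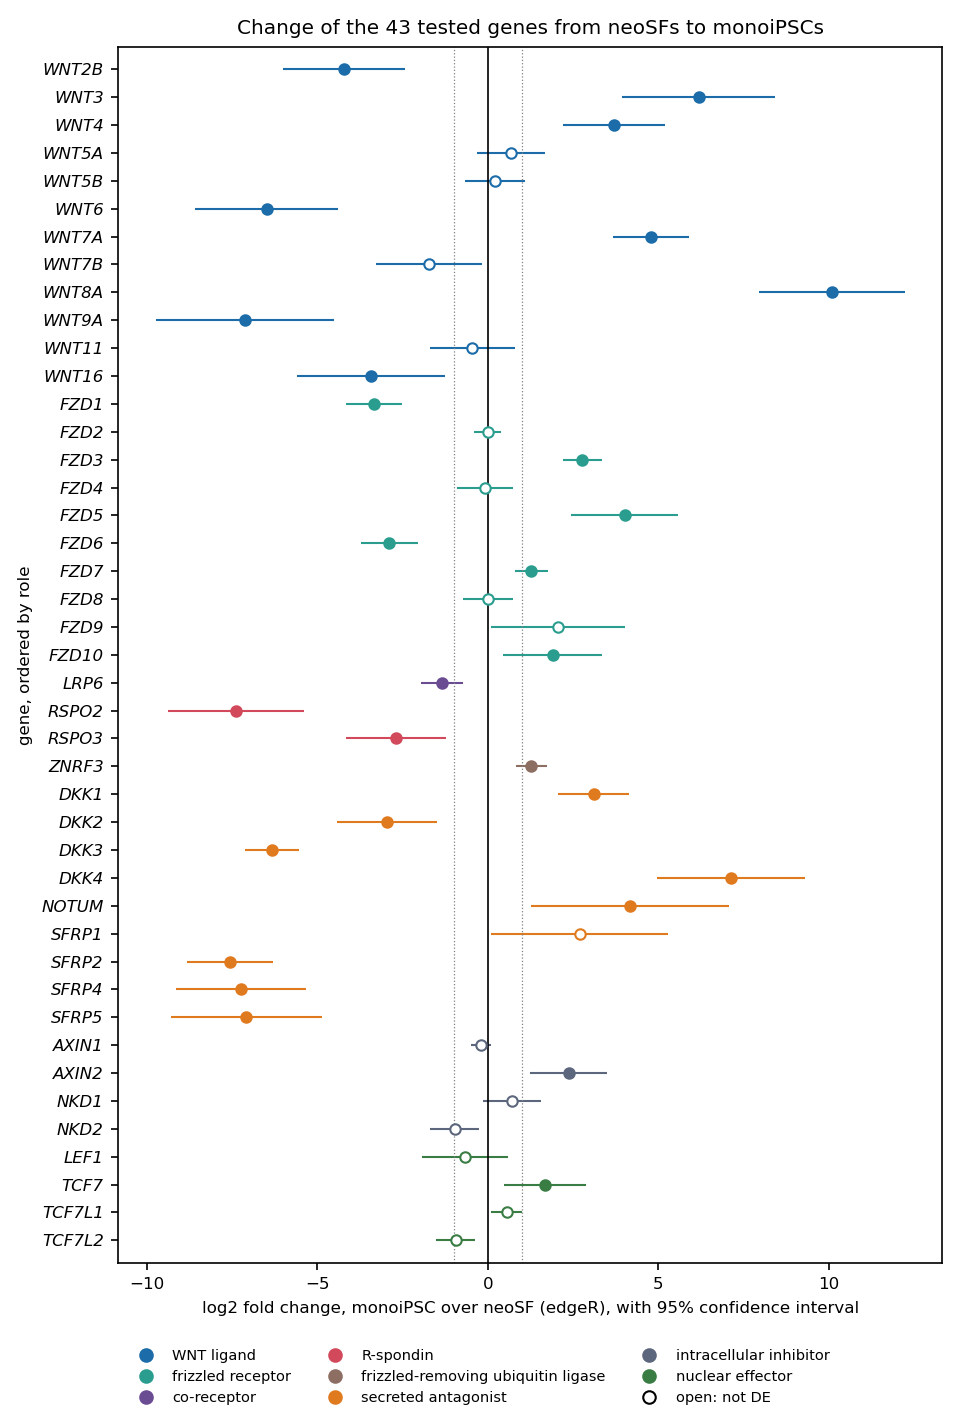
Points show the log2 fold change of monoiPSCs over neoSFs for the 43 tested genes, with 95% confidence intervals, coloured by role. Filled points are DE, open points are not, and the dotted lines mark a 2-fold change. The ligands, frizzleds and secreted antagonists each have genes far to the left and far to the right of 0.

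Among the WNT ligands, WNT8A, WNT3, WNT7A and WNT4 rose and WNT9A, WNT6, WNT2B and WNT16 fell, 8 of the 12 tested ligands. Across all tested genes 45.9% were DE, and 38.6% of those with the minimum NRC in both groups. Of these 8 ligands only WNT7A reached the minimum in both groups. The others passed it only through the group where they are high, so that their difference is in part set by the filter. WNT8A (gene ID 100024816, chromosome 1 of MonDom5) is a beta-catenin-activating ligand of the gastrula. Its NRC was 1.95 and 0 in neoSFs and 978, 919.6, 1541 and 504 in monoiPSCs. The neoSF libraries together held 1 estimated count, beside 7117 in the monoiPSCs, a ratio of 1128 with an exact counting interval of 202 to 44557 on the NRC scale (edgeR adjusted p = 0.000109). WNT3 (gene ID 100024702, chromosome 2), the ligand needed to form the primitive streak in mice, was at 0 and 3.17 in neoSFs and 73.0, 83.5, 213 and 124 in monoiPSCs, and its 2 and 908 counts gave a ratio of 72.0 (interval 19.9 to 595, edgeR adjusted p = 0.00118). Both neoSF libraries were thus at or under the floor of 3 counts for these ligands and all 4 monoiPSC libraries far over it, and both genes stayed DE without either neoSF library, at log2 fold changes of 9.02 for WNT8A without the LSD1 and 5.34 for WNT3 without the FD2M1 neoSFs. With the other neoSF library left out, each comparison was against 0 counts and has no size.

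WNT7A (gene ID 100028905, chromosome 6) acts in limb and nervous system patterning. The NRC of WNT7A was 39.997 and 75.0 in neoSFs and 956, 1241, 2169.8 and 1533 in monoiPSCs, 27.4-fold higher in monoiPSCs (log2 fold change 4.78 ± 0.48, adjusted p = 0.000165). WNT4 (gene ID 100026048, chromosome 4), known for its part in kidney and female gonad development, was at 13.7 and 16.8 in neoSFs and 72.4, 237, 228 and 230.3 in monoiPSCs (log2 fold change 3.70 ± 0.64, adjusted p = 0.00185). The FD2M1 library at passage 15 was the low one of the 4 monoiPSC libraries, still above both neoSFs.

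Of the ligands that fell, WNT6 was at or below the floor in all 4 monoiPSC libraries, and WNT9A in all but the LSD1 line at passage 25. WNT2B lay above the floor in all 4, at 4 to 26.6 counts, and WNT16 in all but the LSD1 line at passage 25. The NRC of WNT9A (gene ID 100025627, chromosome 6), a ligand of joint and skeletal development, was 83.3 and 263 in neoSFs and 0, 0, 0 and 4.12 in monoiPSCs (log2 fold change -7.12 ± 1.12, adjusted p = 0.00122), so that the LSD1 line at passage 25 was the only monoiPSC library with any count. WNT2B (gene ID 100033140, chromosome 2), a beta-catenin-activating ligand, was at 58.5 and 223 in neoSFs and 7.43, 4.68, 14.0 and 2.06 in monoiPSCs (log2 fold change -4.22 ± 0.76, adjusted p = 0.0023), with the LSD1 neoSFs well above the FD2M1 neoSFs. Leaving out the LSD1 neoSFs moved its log2 fold change to -2.94 (adjusted p = 0.0271), and that of WNT9A to -6.07; without the FD2M1 neoSFs the values were -4.89 and -7.73. Leaving out the LSD1 monoiPSCs at passage 15 gave -4.83 for WNT2B. Without those at passage 25 the WNT9A comparison was against 0 counts, with an adjusted p of 0.00197. WNT6 was at 95.3 and 29.0 and WNT16 at 50.7 and 79.2 in neoSFs, both lay between 0 and 10.0 in monoiPSCs, and both were DE.

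Of the ligands that were not DE, WNT5A and WNT5B are known mainly for signalling without beta-catenin. The NRC of WNT5A was 2051 ± 1493 in neoSFs and 3072 ± 670.3 in monoiPSCs (SD, n = 2 and 4; log2 fold change 0.67, 95% CI -0.33 to 1.68), with neoSF values of 996 and 3107. Without the LSD1 neoSFs WNT5A was DE (1.73, adjusted p = 0.00482), and without the FD2M1 neoSFs the log2 fold change was 0.07. WNT5B was at 256 ± 46.3 in neoSFs and 276 ± 99.2 in monoiPSCs (95% CI -0.68 to 1.09 for the log2 fold change). WNT11, a ligand of cell movement in the gastrula, was at 206 ± 160.2 in neoSFs and 140.2 ± 46.3 in monoiPSCs (95% CI -1.70 to 0.79), and the log2 fold change was 0.67 without the FD2M1 and -1.09 without the LSD1 neoSFs. WNT7B gave a log2 fold change of -1.72 with an adjusted p of 0.0543. The other 5 ligands, WNT10A, WNT2, WNT3A, WNT8B and WNT9B, did not reach the minimum in either group, and their highest NRC in any library was 10.7.

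All 10 frizzled genes of the set, which encode the seven-pass receptors for WNT ligands, were detected, and 4 rose, 2 fell and 4 were not DE. Across all tested genes 24.3% rose and 21.6% fell. FZD5 passed the minimum NRC only through the monoiPSCs, so that its rise is in part set by the filter. FZD1 (gene ID 100027981, chromosome 8) and FZD6 fell. The NRC of FZD1 was 17153 and 13827 in neoSFs and 1502, 1275, 2146 and 789.6 in monoiPSCs, 10.1-fold lower in monoiPSCs (log2 fold change -3.34 ± 0.35, adjusted p = 0.000198). FZD6 (gene ID 100023959, chromosome 3), a receptor of planar cell polarity in hair and skin, was at 834 and 1475 in neoSFs and 84.7, 152, 204 and 144 in monoiPSCs (log2 fold change -2.89 ± 0.36, adjusted p = 0.000428). For both genes the neoSF values lay far above all 4 monoiPSC values.

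FZD3 (gene ID 100030835, chromosome 1), needed for axon guidance and polarity, was at 123 and 191 in neoSFs and 944, 944, 1137 and 1011 in monoiPSCs, a 6.82-fold rise (log2 fold change 2.77 ± 0.24, adjusted p = 9.62e-05). FZD7 (gene ID 100019281, chromosome 7) is a receptor described in human embryonic stem cells. The NRC of FZD7 was 1423 and 1380.3 in neoSFs and 3112, 2924, 4009 and 2588 in monoiPSCs (log2 fold change 1.27 ± 0.21, adjusted p = 0.00143), a smaller rise in which all 4 monoiPSC libraries still exceeded both neoSFs. FZD5 (gene ID 100016198, chromosome 7) was at 25.4 and 14.3 in neoSFs and 192, 168, 279 and 542 in monoiPSCs (log2 fold change 4.01 ± 0.67, adjusted p = 0.00163). FZD10 (gene ID 100028967, chromosome 3) was at 129.7 and 328 in neoSFs and 1189.5, 559.8, 1108 and 349 in monoiPSCs (log2 fold change 1.90 ± 0.62, adjusted p = 0.0297), with the LSD1 line at passage 25 just above the LSD1 neoSFs. The FZD10 call was lost without the FD2M1 neoSFs (1.38, adjusted p = 0.145), without the FD2M1 monoiPSCs at passage 15 (1.64, adjusted p = 0.0583) and without the LSD1 monoiPSCs at passage 15 (1.70, adjusted p = 0.0673), and without the LSD1 neoSFs the log2 fold change was 2.74.

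FZD2, FZD4, FZD8 and FZD9 were not DE. The NRC of FZD2 was 7135 ± 561 in neoSFs and 6659 ± 837 in monoiPSCs (SD, n = 2 and 4), with an interval of the log2 fold change from -0.40 to 0.39. FZD4 was at 672 ± 280.0 in neoSFs and 593 ± 184 in monoiPSCs (95% CI -0.90 to 0.74), and FZD8 at 2856 ± 1670.3 in neoSFs and 2659.7 ± 211 in monoiPSCs (95% CI -0.73 to 0.72). Without the FD2M1 neoSFs FZD8 had a log2 fold change of 0.76, under 2-fold. FZD9 was at 1037 and 74.4 in neoSFs and 1718, 1944, 2542 and 2365 in monoiPSCs: the LSD1 neoSFs were far below every other library, the log2 fold change was 2.05 ± 0.84 and the gene was not DE (adjusted p = 0.0658). Without the FD2M1 neoSFs it was 4.93 and without the LSD1 neoSFs 1.15, DE in both cases. LRP6 (gene ID 100018443, chromosome 8), the co-receptor, was at 1769.8 and 1162 in neoSFs and 650.1, 574, 570.0 and 367 in monoiPSCs, and its 2.53-fold fall passed the test (log2 fold change -1.34 ± 0.26, adjusted p = 0.00334).

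R-spondins are secreted proteins that strengthen WNT signalling by removing ZNRF3 and RNF43, the ligases that clear frizzleds from the cell surface. Both tested R-spondins fell and the tested ligase rose, beside 21.6% of all tested genes that fell and 24.3% that rose. These are only 2 genes and 1 gene. RSPO2 passed the minimum NRC only through the neoSFs, so that its fall is in part set by the filter. The NRC of RSPO2 (gene ID 100024387, chromosome 3) was 745 and 734 in neoSFs and 4.49, 1.26, 0 and 10.3 in monoiPSCs (log2 fold change -7.37 ± 0.85, adjusted p = 0.000312), near the floor in the monoiPSCs. The FD2M1 and LSD1 neoSFs gave nearly the same value for this gene, and without the LSD1 monoiPSCs at passage 25, the highest monoiPSC library, the log2 fold change was -8.45. RSPO3 (gene ID 100024261, chromosome 2) was at 2815 and 1350.3 in neoSFs and 572, 192, 346 and 95.4 in monoiPSCs, 6.44-fold lower (log2 fold change -2.69 ± 0.62, adjusted p = 0.00731), with both values at passage 25 below both at passage 15. Without the FD2M1 neoSFs the RSPO3 call was lost (-2.07, adjusted p = 0.0501). ZNRF3 (gene ID 100030631, chromosome 3) was at 321 and 247 in neoSFs and 689, 663, 658 and 560.1 in monoiPSCs, 2.43-fold higher with little spread among the monoiPSCs (log2 fold change 1.28 ± 0.20, adjusted p = 0.00118). RNF43, RSPO1 and RSPO4 did not reach the minimum, and RNF43 was at 5.85 and 15.8 in neoSFs and 11.2, 26.4, 15.6 and 17.0 in monoiPSCs.

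Of the 9 secreted antagonists, all tested, DKK1, DKK4 and NOTUM rose, SFRP2, SFRP4, SFRP5, DKK2 and DKK3 fell, and SFRP1 was not DE. Across all tested genes 45.9% were DE, and 38.6% of those with the minimum NRC in both groups. DKK2, DKK4, NOTUM, SFRP4 and SFRP5 passed the minimum only through the group where they are high. Their difference is in part set by the filter. SFRPs bind WNT ligands outside the cell. SFRP2 (gene ID 100017618, chromosome 5) took 0.1996% and 0.795% of all counts in the neoSFs, rank 41 and 7 among genes by count without correction for length. The NRC of SFRP2 was 55618 and 213853 in neoSFs and 849.9, 578, 623 and 629.9 in monoiPSCs, 189-fold lower in monoiPSCs (log2 fold change -7.56 ± 0.54, adjusted p = 4.06e-05). The neoSF libraries differed, with LSD1 the higher, and the log2 fold change was -8.23 without the FD2M1 and -6.27 without the LSD1 neoSFs. SFRP5 (gene ID 100021647, chromosome 1) had the opposite order of strains in neoSFs, at 5315 and 329 in neoSFs and 14.9, 28.9, 17.6 and 16.2 in monoiPSCs (log2 fold change -7.08 ± 0.95, adjusted p = 0.00059), and gave -3.99 without the FD2M1 and -8.00 without the LSD1 neoSFs, DE in both cases. SFRP4 (gene ID 100617913, chromosome 6) was at 172 and 476 in neoSFs and 4.49, 0, 2.10 and 1.02 in monoiPSCs (log2 fold change -7.23 ± 0.81, adjusted p = 0.000274), at or near the floor in monoiPSCs, with -6.31 without the LSD1 neoSFs and -8.01 without the FD2M1 monoiPSCs at passage 15.

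SFRP1, also an SFRP, was not DE. The NRC of SFRP1 was 1205 and 38.8 in neoSFs and 2787, 2191, 5723 and 4140.3 in monoiPSCs, so that all monoiPSC libraries lay above both neoSFs. The neoSF libraries lay far apart, and the log2 fold change of 2.69 ± 1.11 was not DE (adjusted p = 0.0673). It was 6.70 without the FD2M1 neoSFs and 1.72 without the LSD1 neoSFs, DE in both cases.

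DKK1, DKK2 and DKK4 bind LRP5 and LRP6, while DKK3 is a divergent family member. DKK3 (gene ID 100030081, chromosome 5) was at 15714 and 12850.5 in neoSFs and 106, 176, 135 and 250.1 in monoiPSCs, 80.2-fold lower (log2 fold change -6.33 ± 0.34, adjusted p = 1.72e-05). DKK2 (gene ID 100012384, chromosome 5) was at 194 and 302 in neoSFs and 62.7, 26.8, 11.9 and 17.8 in monoiPSCs (log2 fold change -2.96 ± 0.62, adjusted p = 0.00466), and without the FD2M1 monoiPSCs at passage 15, its highest monoiPSC library, at a log2 fold change of -3.62. In both genes every neoSF value exceeded every monoiPSC value.

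DKK1 and DKK4 went the other way. The NRC of DKK1 (gene ID 100023104, chromosome 1) was 71.2 and 58.3 in neoSFs and 681, 656, 287 and 439 in monoiPSCs, 8.57-fold higher (log2 fold change 3.10 ± 0.44, adjusted p = 0.000786). DKK4 (gene ID 100030155, chromosome 1) was at 6.84 and 1.58 in neoSFs and 384, 638, 1067 and 281 in monoiPSCs (log2 fold change 7.13 ± 0.93, adjusted p = 0.000531), under the floor in the LSD1 neoSFs and just over it in the FD2M1 neoSFs, and its log2 fold change was 8.56 without the FD2M1 and 6.33 without the LSD1 neoSFs. NOTUM (gene ID 100029923, chromosome 2) encodes an enzyme that inactivates WNT ligands by taking off their lipid. It was at 21.6 and 0 in neoSFs and 263, 193, 195 and 37.1 in monoiPSCs (log2 fold change 4.17 ± 1.24, adjusted p = 0.0207). With no count in the LSD1 neoSFs the size of this change is poorly set, and without the LSD1 neoSFs it was 3.10 and no longer DE (adjusted p = 0.0655). Without the FD2M1 neoSFs the comparison was against 0 counts.

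**Figure D3:**
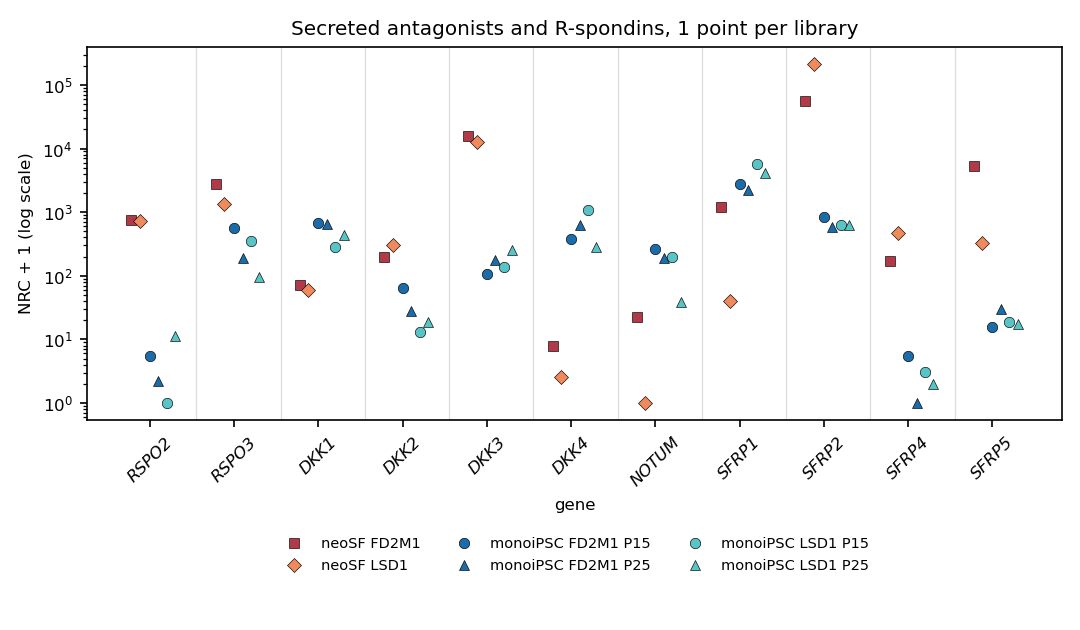
Each point is 1 library, with NRC + 1 on a log axis for the tested R-spondins and secreted antagonists. The neoSF points (squares and diamonds) lie above all monoiPSC points for RSPO2, RSPO3, DKK2, DKK3, SFRP2, SFRP4 and SFRP5, and below them for DKK1, DKK4, NOTUM and SFRP1.

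AXIN2 of the 4 intracellular inhibitors and TCF7 of the 4 nuclear effectors rose, 25% of each, and none fell. The shares over all tested genes were 24.3% higher and 21.6% lower, so that the rises are near the share of all genes. AXIN1, the scaffold of the beta-catenin destruction complex, was at 2010.0 ± 95.9 in neoSFs and 1635 ± 25.7 in monoiPSCs (SD, n = 2 and 4; 95% CI -0.49 to 0.08 for the log2 fold change). AXIN2 (gene ID 100024610, chromosome 2), its inducible relative and a widely used target gene of beta-catenin, was at 84.2 and 142 in neoSFs and 747, 453, 706 and 288 in monoiPSCs, 5.15-fold higher in monoiPSCs (log2 fold change 2.36 ± 0.48, adjusted p = 0.00403). NKD1 and NKD2 encode inhibitors that bind Dishevelled. NKD1 was at 682 ± 243 in neoSFs and 1041 ± 350.3 in monoiPSCs (95% CI -0.13 to 1.55) and NKD2 at 751 ± 297 in neoSFs and 359 ± 92.7 in monoiPSCs (log2 fold change -0.97, under 2-fold, adjusted p = 0.027). NKD2 passed the 2-fold threshold under 5 of 11 alternatives, at -1.32 without the LSD1 neoSFs and -1.14 without the LSD1 monoiPSCs at passage 15.

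Of the nuclear effectors, TCF7 (gene ID 100017589, chromosome 1) rose. The NRC of TCF7 was 302 and 454 in neoSFs and 1766, 1435, 772 and 550.2 in monoiPSCs (log2 fold change 1.67 ± 0.51, adjusted p = 0.0225), with both FD2M1 libraries above both LSD1 libraries among the monoiPSCs. Its call was lost without the FD2M1 neoSFs (1.41, adjusted p = 0.118) and without the LSD1 neoSFs (2.01, adjusted p = 0.0505). LEF1 was at 262 and 106 in neoSFs and 148, 114, 125 and 43.1 in monoiPSCs, with overlapping groups (95% CI -1.94 to 0.60), and at a log2 fold change of 0.11 without the FD2M1 neoSFs. TCF7L1, the factor that mostly represses targets in pluripotent cells, and TCF7L2 had adjusted p of 0.0371 and 0.0122 at log2 fold changes under 2-fold (0.55 and -0.94). TCF7L2 passed 2-fold without the LSD1 neoSFs (-1.24) and without the FD2M1 monoiPSCs at passage 15 (-1.07).

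AXIN2, LEF1, TCF7, NKD1, NOTUM, ZNRF3 and RNF43 are the members known as feedback or direct targets of beta-catenin. Of the 6 tested, AXIN2, TCF7, NOTUM and ZNRF3 rose, none fell, and NKD1 and LEF1 were not DE. Across all tested genes 24.3% rose and 21.6% fell. As given above, the calls of NOTUM and TCF7 did not hold without the LSD1 neoSFs. The median log2 fold change of the 6 was 1.48, beside 0.08 over all tested genes. NOTUM passed the minimum NRC only through the monoiPSCs, so that its part in this median is in part set by the filter. Of 16 further target genes found outside the set, 15 were tested, 5 rose and 3 fell, beside the 24.3% and 21.6% of all genes. Among them GAD1, which encodes an enzyme that makes GABA, had no count in either neoSF library and was at 99.3, 472, 117 and 639 in monoiPSCs, on average at least 56.7-fold higher than 3 counts in the FD2M1 neoSFs, where 3 counts weigh most. WISP1, a matrix-associated signalling protein of connective tissue, was at 32376 and 37274 in neoSFs and 21.3, 10.0, 8.41 and 13.4 in monoiPSCs (log2 fold change -11.25 ± 0.38, adjusted p = 7.81e-06). GAD1 passed the minimum NRC only through the monoiPSCs and WISP1 only through the neoSFs. Their differences, and their part in the counts of target genes, are in part set by the filter.

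The other genes of the pathway were counted from lists of 69 genes found, of which 67 were tested. Of these, 22 rose (32.8%) and 13 fell (19.4%), beside 24.3% and 21.6% of all tested genes, the shares against which each list stands. GPC3 and CER1, named below, passed the minimum NRC only through the monoiPSCs, so that their rise is in part set by the filter. Such genes also enter the counts of these lists. Of all genes with the minimum in both groups 38.6% were DE. Ligand secretion was split, since PORCN, which attaches the lipid to WNT ligands, rose (254 and 205 in neoSFs and 525, 833, 688 and 815 in monoiPSCs, log2 fold change 1.74 ± 0.25, adjusted p = 0.000879) and WLS, which carries the ligand to the surface, fell (12440.3 and 10493 in neoSFs and 1966, 3586, 3928 and 3481 in monoiPSCs, log2 fold change -1.73 ± 0.26, adjusted p = 0.00109). Of 11 other receptors and co-receptors 2 rose and 3 fell. The glypican GPC6 was at 4795 and 5087 in neoSFs and 402, 511, 499.8 and 732 in monoiPSCs (log2 fold change -3.11 ± 0.23, adjusted p = 4.46e-05), and GPC3, another glypican, held 1 count in neoSFs and 2116 in monoiPSCs, a ratio of 335 (exact counting interval 60.1 to 13252). Of 8 other secreted modulators tested, 3 rose and 2 fell: CER1, an antagonist of NODAL, BMP and WNT proteins, was at 5.85 and 12.7 in neoSFs and 1096, 5354, 2600.1 and 5231 in monoiPSCs (log2 fold change 8.63 ± 1.01, adjusted p = 0.000324), and FRZB, an SFRP family member, at 4892 and 3266 in neoSFs and 1431, 847, 1111 and 309.5 in monoiPSCs (log2 fold change -2.04 ± 0.50, adjusted p = 0.0092).

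Of 14 signal transducers and destruction complex genes 3 rose and none fell. DVL3, a Dishevelled, was at 859.7 and 946 in neoSFs and 2923, 2921, 3407 and 3674 in monoiPSCs (log2 fold change 1.93 ± 0.17, adjusted p = 9.89e-05). Of 8 nuclear co-factors 2 rose and 1 fell, with the co-repressor TLE1 at 538 and 591 in neoSFs and 3325, 1863, 3278 and 2215 in monoiPSCs (log2 fold change 2.34 ± 0.30, adjusted p = 0.000487) and the beta-catenin co-factor BCL9L at 10025 and 10755 in neoSFs and 1303, 1162, 1175 and 1402 in monoiPSCs (log2 fold change -2.95 ± 0.14, adjusted p = 1.27e-05). The planar cell polarity list, genes that orient cells within a sheet, had 11 genes, of which 6 rose and 3 fell. CELSR2 passed the minimum NRC only through the monoiPSCs, so that its rise is in part set by the filter. The cadherin CELSR2 was at 9.43 and 3.96 in neoSFs and 4576, 5093, 4819 and 4549 in monoiPSCs (log2 fold change 9.66 ± 0.35, adjusted p = 7.81e-06), and DAAM2, a formin that acts below Dishevelled, at 9674 and 6913 in neoSFs and 236, 250.4, 290.3 and 522 in monoiPSCs (log2 fold change -4.58 ± 0.34, adjusted p = 4.98e-05).

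The passages were compared within each line, for the 34 members with the minimum NRC in all 4 monoiPSC libraries. No member was DE by edgeR, and neither was any of the 12252 genes tested (0.0%). At an unadjusted p under 0.05 there were 11 members, beside 9.35% of all genes, and while limma called none, DESeq2 called FZD10 and RSPO3, beside 0.977% of all genes. By direction alone, 18 of the 34 members were lower at passage 25 in both lines, beside 29.6% of all genes, and 3 (DKK3, WNT11 and WNT4) were higher in both, beside 29.0%. The median passage log2 fold change was -0.32 for the members and -0.01 for all genes.

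RSPO3 had the widest passage difference among the members called by DESeq2. It was 2.97-fold lower at passage 25 in the FD2M1 line and 3.63-fold lower in the LSD1 line (edgeR log2 fold change -1.73 ± 0.25, adjusted p = 0.162; DESeq2 adjusted p = 0.0002). FZD10 was 2.12-fold and 3.17-fold lower (edgeR -1.39 ± 0.21, adjusted p = 0.164; DESeq2 adjusted p = 0.000156). Without the FD2M1 monoiPSCs at passage 25, in a fit without the line that leaves passage 25 with the LSD1 library alone, passage is mixed with line and the spread comes from passage 15. This fit called FZD10, RSPO3 and NOTUM among 215 of 12252 genes, with edgeR adjusted p of 0.00667, 0.00718 and 0.00927, while leaving out any of the other 3 libraries gave 0 members.

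Of the 7 feedback targets, all but RNF43 were lower at passage 25 in both lines, beside 29.6% of all genes. RNF43 is not among the 34 members with the minimum NRC. In the fits on all 4 libraries no feedback target was called by edgeR or DESeq2. AXIN2 was not called, at 747 and 453 in the FD2M1 line and 706 and 288 in the LSD1 line for passages 15 and 25 (log2 fold change -1.02 ± 0.22, adjusted p = 0.297). The NRC of NKD1 was 1216, 679, 1442 and 827 (passage log2 fold change -0.84 ± 0.16, adjusted p = 0.259), and that of LEF1 148, 114, 125 and 43.1. ZNRF3 differed least, with 689, 663, 658 and 560.1. Of the frizzleds 6 of 10 were lower in both lines, as were 2 of 7 ligands, WNT5B and WNT8A, beside the same 29.6%. WNT8A was at 978, 919.6, 1541 and 504, nearly level in the FD2M1 line.

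Markers of other cell types also differed between the passages, the skeletal muscle and neural progenitor lists in opposite directions in the FD2M1 and LSD1 lines. The summed NRC of the neural crest and melanocyte list was 22120.5 and 29088 at passage 15 and 11862 and 14766 at passage 25 in the FD2M1 and LSD1 lines, that of the primitive streak and mesendoderm list 5270.0 and 4411 against 7915 and 5147 (10 of 12 genes found, 5 over an NRC of 20 in each monoiPSC library, EOMES at the floor), and that of the skeletal muscle list (5 of 6 found, 4 over an NRC of 20) 3593 and 6136 against 1971 and 16772. In the same order, the neural progenitor list summed to 5410 and 6752 against 4416 and 10583, and the endothelial list to 427 and 657.5 against 546 and 685. The fibroblast list lay between 13809.7 and 16055. The part of these cells in the passage values was not tested.

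**Figure D4:**
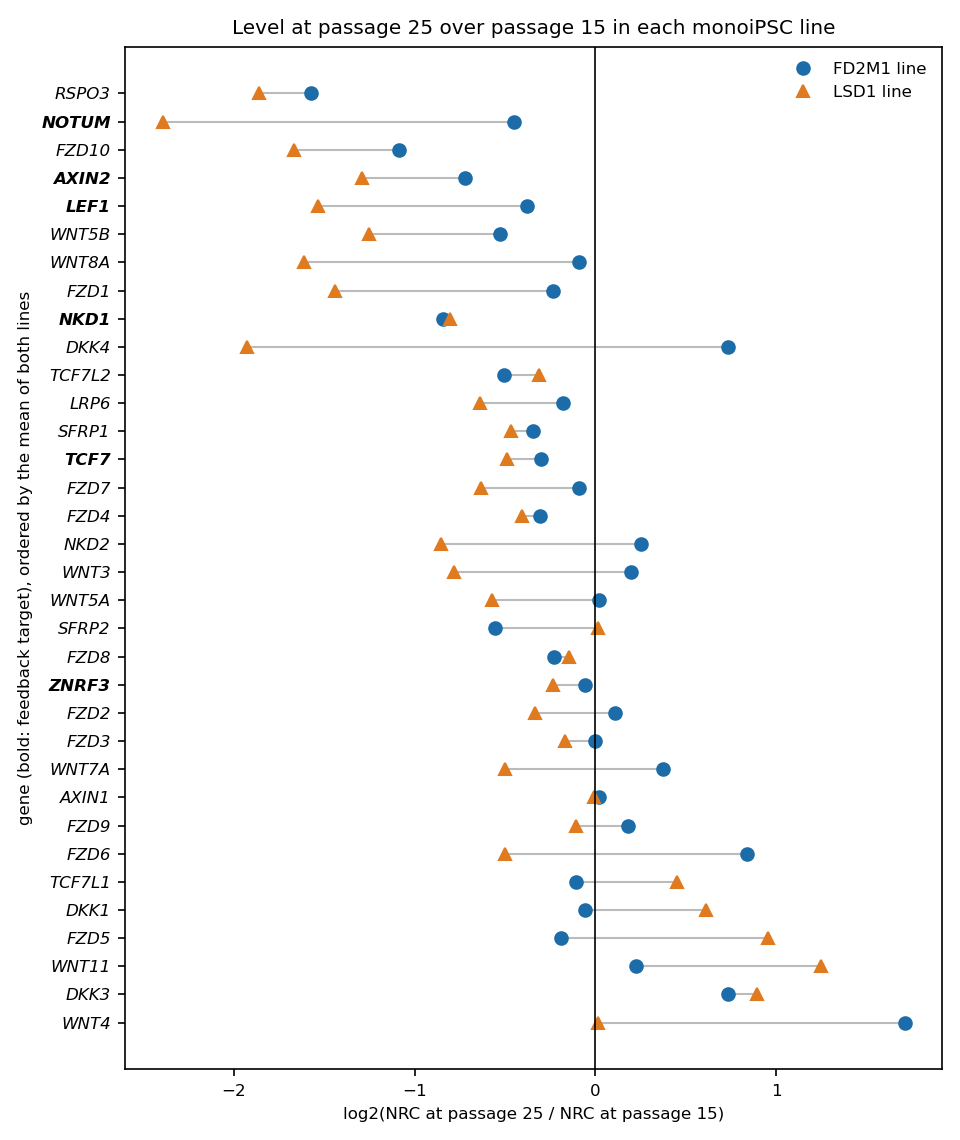
For each of the 34 members with the minimum NRC in all monoiPSC libraries, the points give log2 of NRC at passage 25 over passage 15 in the FD2M1 line (circles) and the LSD1 line (triangles). Both points lie left of 0 for 18 genes, among them RSPO3, FZD10 and the feedback targets in bold, and right of 0 for DKK3, WNT11 and WNT4.

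Between the lines, no member was DE by edgeR at equal weight of the passages, as for all 12252 genes (0.0%). At an unadjusted p under 0.05 there were 10 members, beside 14.2% of all genes, limma called none, and DESeq2 called TCF7 alone of the members, beside 1.66% of all genes. TCF7 was lower in LSD1 (edgeR log2 fold change -1.28 ± 0.17, adjusted p = 0.13; DESeq2 adjusted p = 3.83e-05). Both LSD1 libraries lay above both FD2M1 libraries for AXIN1, FZD3, FZD5, FZD9, SFRP1, WNT3 and WNT7A, 7 of 34, beside 20.9% of all genes. They lay below for DKK1, FZD4, LRP6, TCF7 and ZNRF3, 5 of 34, beside 22.6%. DKK1, for example, was at 681, 656, 287 and 439.

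The change from neoSFs to monoiPSCs differed between the strains for 2 of 43 members, SFRP1 and FZD9, beside 0.0841% of all 13072 genes (11 genes) by the strain by cell type term of edgeR. At an unadjusted p under 0.05 there were 8 members, beside 9.13% of all genes. In the FD2M1 strain the 2 monoiPSC libraries were on average 2.07-fold above the neoSFs for SFRP1, and in the LSD1 strain 127-fold, a difference of 5.95 ± 0.48 on the log2 scale (adjusted p = 0.0311). For FZD9 the folds were 1.76 and 33.0, with a difference of 4.21 ± 0.31 (adjusted p = 0.0311). In both genes the LSD1 neoSF library was the low one. The residual spread of this test comes from the passages of the lines, since each strain has 1 neoSF library, so that the strain and that 1 culture cannot be told apart.

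Without the FD2M1 monoiPSCs at passage 15 both calls were lost at differences of 6.15 and 4.13 (adjusted p = 0.0577 for SFRP1 and 0.0589 for FZD9), and likewise without those at passage 25, at 5.79 and 4.29 (0.0581 and 0.0607). DESeq2 called 6 members, beside 2.33% of all genes: FZD8, SFRP2, SFRP5 and TCF7 in addition. SFRP5 had an edgeR difference of 3.67 ± 0.54 (adjusted p = 0.159; DESeq2 adjusted p = 2.15e-06), and its neoSF values of 5315 and 329 ended at 14.9 to 28.9 in the monoiPSCs. FZD9, NOTUM, SFRP1 and SFRP5, 4 of 43 tested members, differed at least 10-fold between the neoSF libraries (NRC plus 1), beside 1.28% of all genes. In the monoiPSCs the levels of FZD9 and SFRP1 differed between the lines by log2 values of 0.43 ± 0.16 and 0.98 ± 0.15 (edgeR adjusted p = 0.321 and 0.133). With DESeq2 the adjusted p were 0.452 and 0.000359, SFRP1 at a log2 value of 0.99, under 2-fold.

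**Figure D5:**
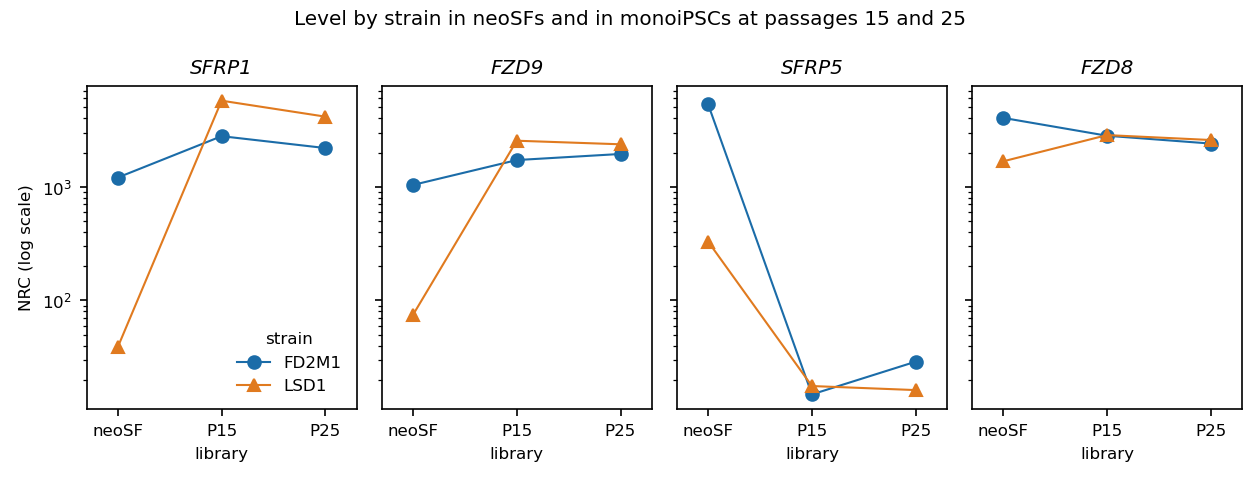
Lines join the NRC (log axis) of each strain from neoSFs to monoiPSCs at passages 15 and 25 for SFRP1, FZD9, SFRP5 and FZD8. The strains lie far apart in neoSFs for SFRP1, FZD9 and SFRP5 and closer together in monoiPSCs.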

How the data were processed

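The data were bulk RNA-seq libraries, 2 of neoSFs and 4 of monoiPSCs. The authors aligned reads to MonDom5 and counted them on RefSeq genes with StrandNGS. They deposited raw counts, of which 86.8% of values above 0 were fractional (tolerance 1e-06), so these were treated as estimated counts and rounded. A second deposited table held DESeq-normalized log2 values, which equal the log2 of the count times 1 factor per library and were turned back into NRC. The counting of paired ends (reads or fragments) and of strand was not given in the sources used here, so that overlapping genes cannot be separated. Each table ends in 2 lines without a gene, which were left out. The symbols of all 51 members equalled those of the RefSeq table of mMonDom1.pri for the same gene number, which is another assembly, so no coordinates are given and no sequence was used here.

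Genes that reached an NRC of 20 in either both neoSF or all 4 monoiPSC libraries were tested with edgeR 4.0.16 (TMM scaling, glmQLFit and glmQLFTest, R 4.3.3) on all genes at once, for monoiPSCs against neoSFs (no block), passages (line as block), strains (passage as block) and the strain by cell type term. Intervals are at 95%. DESeq2 1.42.0, limma 3.58.1 on the deposited log2 values, RLE scaling, no filter, the strain as a block and leaving out each library were alternatives, and the leave-one-out fits of the strain by cell type term were chosen after seeing the data. The fits were tested on simulated counts. Strain pairs each line with the neoSF culture it came from. Named are DE members whose higher group averaged 100 NRC or more, members at that mean without DE, feedback targets, members called within strains or passages, and, per pathway list, the DE gene with the widest change in each direction at that mean. The members, lists and tests were chosen with earlier results of these data known.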

Additional observations from a re-analysis of the deposited data

Results flagged for a closer look

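Among the 4 monoiPSC libraries, WNT4 was at an NRC of 72.4 in the FD2M1 line at passage 15, far from the other 3 libraries (228 to 237), with a gap of 0.944 of the whole range, past Dixon's limit for 4 samples. WNT5A was at 4077 in the LSD1 line at passage 15, with a gap of 0.974 of the range to the other libraries. Of 35 members tested this way 2 were found, and chance marks about 1 group in 20.

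The change of SFRP1 from neoSFs to monoiPSCs was larger in LSD1 than in FD2M1 by 5.95 on the log2 scale, and that of FZD9 by 4.21, both at an adjusted p of 0.0311 by edgeR's strain by cell type term. Both rest on 1 neoSF library per strain and on the low value in the LSD1 neoSFs.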

How the results depend on the processing

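The count of DE members was 28 and lay between 27 and 33 under every alternative, with 13 to 16 higher and 13 to 17 lower. With strain as the replicate block it was 28 (14 higher, 14 lower), and the pairing changed no call of a named gene. Of the 26 named DE genes, 22 were called under all 11 alternatives, and FZD10, NOTUM, RSPO3 and TCF7 lost the call in 7 fits that left out 1 library. The median of all genes moved by less than 0.1 (log2) with the scaling. By passage, DESeq2 called 2 members and leaving out 1 library gave 0 to 3, beside 0 otherwise. The 3 came from the fit with 1 library at passage 25, which called 215 of 12252 genes. Between lines, DESeq2 called 1 and edgeR 0. For the strain by cell type term, DESeq2 called 6, and leaving out 1 monoiPSC library gave 0 to 2. The direction turned only in genes that were not DE: with 1 library left out, FZD2 ran from -0.0958 to 0.0857, FZD4 from -0.45 to 0.41, FZD8 from -0.50 to 0.76, LEF1 from -1.18 to 0.11 and WNT11 from -1.09 to 0.67, and FZD8 was at 0.029 with limma and 0.0769 with the strain block. The causes were not tested. Where leaving out 1 library left a lone one in its group or passage, its spread was taken from the other group or passage. No paired leave-one-out fit of passage or line has a residual degree of freedom, so those fits left the other factor out. Depth limits the genes at or near 3 counts in neoSFs, WNT8A, WNT3, DKK4 and NOTUM, whose fold changes are wide, and 8 members could not be tested.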
